A study of Mus musculus with 6 samples.

Results

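The G1 cyclins, their kinases and the inhibitors of those kinases were examined in mouse neural stem cells in which the transcription factor Sox4 was targeted by short hairpin RNAs. The set comprised Ccnd1, Ccnd2, Ccnd3, Ccne1, Ccne2, Cdk4, Cdk6, Cdkn1a, Cdkn1b and Cdkn2c, chosen by gene symbol. The choice was made with earlier results of these data known, and the rule itself uses no measured value. All 10 were found among the 12316 gene rows of the authors' comparison, each in 1 row of its own. None of the 10 was called different between the conditions: 0 of 10 against 4.99% of all rows called in either direction. At that share 0 calls in a set of 10 is not unusual, so the count shows nothing particular to the set. Of all rows, 3.17% were called higher and 1.83% lower in the second condition.

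The cells were neural stem cells of CD-1 mouse embryos at E14.5, bought from a supplier and kept as a monolayer on poly-L-ornithine and laminin with the mitogens EGF and bFGF. All of them had received a lentivirus and had been selected with puromycin at 0.5 µg/mL, so no untransduced cells served as a further control. There were 2 libraries with a scrambled hairpin, 2 with Sox4 shRNA 1 and 2 with Sox4 shRNA 2. Within each hairpin the libraries came from different passages, which the submitters describe as biological duplicates. The series' design text speaks of 1 hairpin against Sox4 whereas the labels list 2, and which of them entered the deposited comparison is not stated. That comparison gives each gene 1 level in a first and 1 in a second condition and names neither, so every fold below is second over first. With no value per library, no standard deviation, n or sequencing depth stands behind a level. A gene was called where the authors' flag was set, which corresponds to a Cuffdiff q of at most 0.05. Levels are taken as FPKM, the unit Cuffdiff writes, in which fragments are divided by transcript length and by mapped fragments. The unit is meant for setting levels of different genes side by side. Ratios between genes below are ratios of single values and were not tested. The exon overlaps described below, and a level below 1 as for Cdk6, limit them.

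Progress through G1 is driven by D-type cyclins, which growth factors induce and which activate CDK4 and CDK6, and then by E-type cyclins, which activate CDK2. These kinases phosphorylate the retinoblastoma protein and so release E2F factors, which turn on genes of S phase, Ccne1 and Ccne2 among them. Inhibitors of the INK4 family bind CDK4 and CDK6, whereas those of the CIP/KIP family bind cyclin and kinase complexes more broadly. In neural progenitors the length of G1 and the level of these regulators are tied to the choice between further division and differentiation.

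Sox4 itself was listed at 126.8 and 83.9 in the authors' deposited table (Cuffdiff q = 0.0543) and was not called. Of 10 neural stem cell markers, 9 were among the rows, with Vim, which encodes vimentin, at 709 and 775 and the glutamate transporter gene Slc1a3 at 544 and 565 in the authors' deposited table. In that list 2 rose, Nes and Notch1, and 1 fell, Fabp7, listed at 4620 and then 2286 in the authors' deposited table, and 6 were not called. Over all rows 3.17% were called higher and 1.83% lower. Summed levels of the list were 6130 and 3950, and the gap in Fabp7 alone was larger than the gap between these sums. Of 8 neuronal markers 6 were among the rows and 0 were called, where 4.99% of all rows were called in either direction. Their summed levels were 140.1 and 145.4, most of it from Map2. Tubb3, a neuronal tubulin gene, went against that sum, at 6.75 and 3.90 in the authors' deposited table (unadjusted p 0.00645, Cuffdiff q = 0.0996). It was the 1 neuronal marker with an unadjusted p under 0.05, which 17.5% of all rows had. Of 7 microglial, 5 endothelial and 6 fibroblast markers, 0 were among the rows analysed here. The part of these marker shifts in any result below was not tested. In bulk RNA, fewer cells of a type and less RNA per cell cannot be told apart.

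D-type cyclins made up the most abundant cyclin transcripts of the set. Ccnd2 (chromosome 6, 127125162 to 127152193, minus strand) had levels of 319.9 (first condition) and 399.6 (second) in the authors' deposited table. Its level lay in the top 1.48% of all rows, and the authors' deposited table gives a log2 fold of 0.32 (Cuffdiff q = 0.484). Ccnd1 (chromosome 7, 144929931 to 144939925, minus strand) was the next, at 178.3 and 245.5 in the authors' deposited table. The second level was 1.38-fold the first, for which the authors' deposited table gives a log2 fold of 0.46, an unadjusted p of 0.0126 and a Cuffdiff q of 0.144. This was the lowest q of the 10 genes, and it did not pass. Ccnd3 (chromosome 17, 47505051 to 47599691, plus strand) had the smallest fold of the set, at 80.9 and 77.1 in the authors' deposited table (log2 fold -0.07, Cuffdiff q = 0.928). Summed over the 3 genes, the level was 579 and then 722. Ccnd2 held 55.2% and 55.3% of those sums. The share of Ccnd1 was 30.8% and 34.0%, and that of Ccnd3 14.0% and 10.7%.

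E-type cyclins were present at levels close to the median of all rows, which was 12.6. Ccne1 (chromosome 7, 38097984 to 38107534, minus strand) was listed at 13.2 (first) and 18.5 (second) in the authors' deposited table. This log2 fold of 0.49, or 1.40-fold, was the largest in size among the 10 genes, and the authors' deposited table gives it an unadjusted p of 0.0205 and a Cuffdiff q of 0.193. A fold at least this large in size, in either direction, was seen in 18.0% of all rows. Ccne2 (chromosome 4, 11191351 to 11204779, plus strand) stood at 14.6 and 18.4 in the authors' deposited table (log2 fold 0.33, Cuffdiff q = 0.707). The pair thus had nearly equal levels, with Ccne1 at 0.90 times Ccne2 in the first and 1.01 times in the second condition. The summed D-type level exceeded the summed E-type level 20.8-fold (first) and 19.6-fold (second).

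The kinases that partner the D-type cyclins were represented almost entirely by Cdk4. Cdk4 (chromosome 10, 127063534 to 127067920, plus strand) was the most abundant of the 10 transcripts, at 561.8 (first) and 505.2 (second) in the authors' deposited table. It lay in the top 0.861% of all rows, with a fold of -0.15 on the log2 scale (Cuffdiff q = 0.765 in the authors' deposited table). Cdk6 (chromosome 5, 3341485 to 3531008, plus strand) stood at only 0.790 and 0.667 in the authors' deposited table, near the bottom of the listed genes (log2 fold -0.25, Cuffdiff q = 0.851). Per length, Cdk4 was 711-fold above Cdk6 in the first and 758-fold in the second condition. Cdk6 was the 1 gene of the set below a level of 1 in both conditions.

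**Figure D1:**
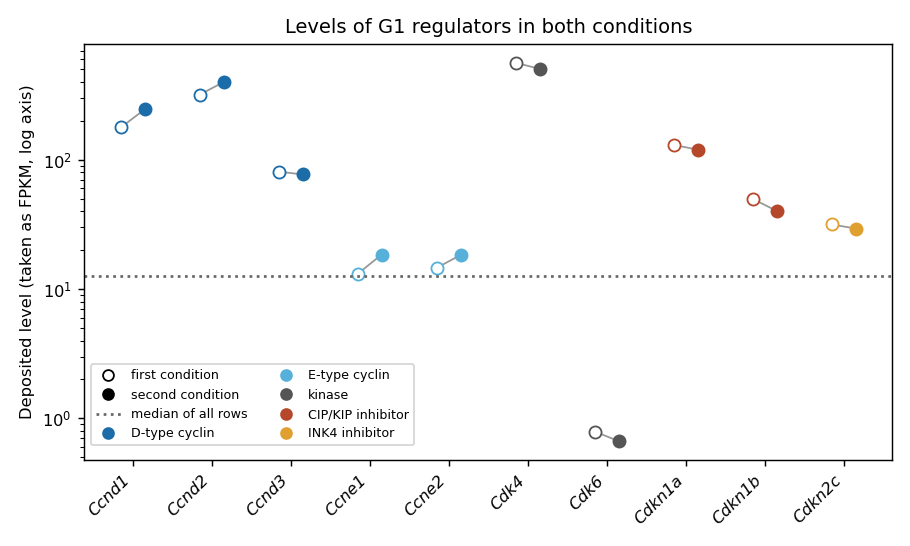
Deposited levels (taken as FPKM, log axis) of the 10 G1 regulators in the first condition (open points) and the second (filled points), coloured by role, with the median of all rows as a dotted line. Each point is 1 deposited value without an error. Cdk4 stands highest at 561.8 and 505.2, Cdk6 lowest at 0.790 and 0.667, and 4 of the 5 cyclins are higher in the second condition.

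All inhibitors of the set were somewhat lower in the second condition, and none was called. Cdkn1a (chromosome 17, 29090976 to 29100727, plus strand), the CIP/KIP inhibitor induced by p53, was the most abundant, at 130.3 and 119.8 in the authors' deposited table. Between those levels the authors' deposited table gives a log2 fold of -0.12 (Cuffdiff q = 0.818). Cdkn1b (chromosome 6, 134920401 to 134925513, plus strand), a CIP/KIP inhibitor of arrested and differentiating cells, stood at 49.8 and 40.2 in the authors' deposited table. That log2 fold of -0.31 was the lowest of the 10, and the authors' deposited table gives it an unadjusted p of 0.108 and a Cuffdiff q of 0.441. Cdkn2c (chromosome 4, 109660876 to 109667189, minus strand), the INK4 inhibitor of the set, stood at 31.6 and 29.4 in the authors' deposited table (log2 fold -0.11, Cuffdiff q = 0.875). Ccnd1 was 3.58 times the level of Cdkn1b in the first and 6.11 times in the second condition, a ratio of single values that was not tested. The pair joins the gene of lowest q among the 10 with the gene of lowest fold, so its ratio does not stand for the set.

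By sign, 4 of the 5 cyclins were higher in the second condition and all 5 kinases and inhibitors were lower, whereas over all rows 50.5% of folds were positive. The split by role was not planned, and it puts kinases together with their inhibitors. The signs carry no test, and a fold that was not called does not show that a level was the same in both conditions. At an unadjusted p under 0.05, 2 of the 10 genes passed, Ccnd1 and Ccne1, both higher, where 9.96% of all rows passed as higher and 7.53% as lower. The median size of the log2 fold was 0.28 over the 10 genes and 0.22 over all rows. Among the 9 genes with a level of at least 1, the log2 ratio, computed after adding a pseudocount of 1, had a median of -0.07, against 0.00177 over all rows at that level. In order of level the conditions differed only in Ccne1 and Ccne2, which changed places. Without a value per library, which neighbours in that order differ beyond their spread cannot be said.

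The folds that were called at these levels set a scale for the comparison. Over all rows the smallest log2 fold called was 0.55 in size. Among the 500 rows nearest to Ccnd1 in mean level, 31 were called, the smallest at a log2 fold of 0.58 in size, and 17 with a fold as large as that were not called. Near Ccne1 the called rows numbered 22 of 500, with a smallest size of 0.56. Near Cdk6 only 13 of 500 were called, and the smallest log2 fold among them was 0.91 in size. All 10 genes thus lay below the smallest fold that was called at their level, so at these levels no row with a fold of the size seen here was called among those neighbours.

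**Figure D2:**
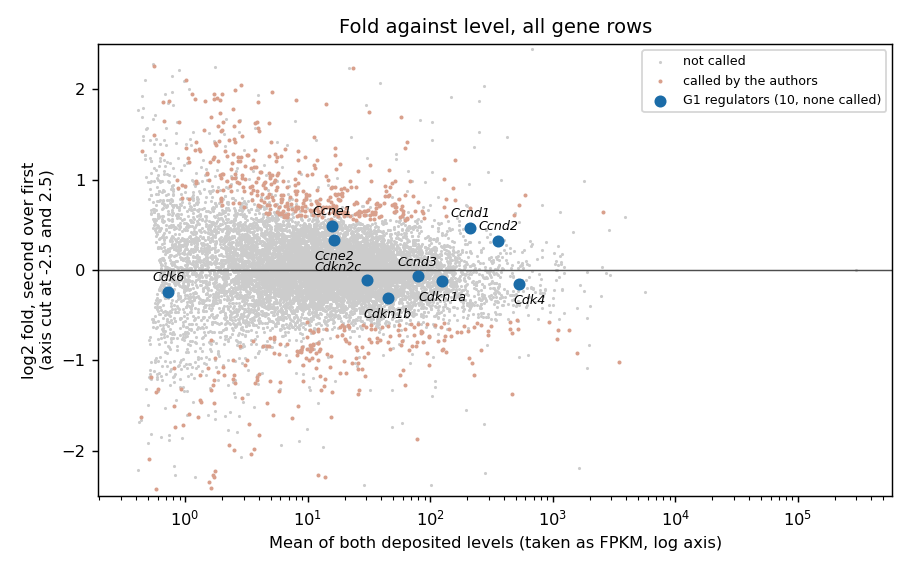
log2 fold of the second over the first condition against the mean of both deposited levels (taken as FPKM, log axis) for all gene rows, with called rows in orange, the others in grey and the 10 G1 regulators in blue. The 21 rows beyond a log2 fold of 2.5 in size are outside the axis. All 10 blue points lie in the grey band, and Ccne1 at 0.49 is the highest of them.

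Promoters are shown for the genes with the highest and the lowest fold among the 7 with a promoter sequence in the RefSeq table on GRCm38.p6, which holds 10 windows for them. The sequences are the 250 bases before the annotated start of Ccne1 (chr7:38107491-38107740, minus strand) and of Cdkn1b (chr6:134920151-134920400, plus strand). The start is that of the RefSeq table, and for Ccne1 it lies within the GENCODE gene given above, so the last bases printed for Ccne1 overlap that gene model. Both sequences are written 5′ to 3′ on the strand of the gene, with GC boxes (GGGCGG on either strand) in capitals.
Ccne1: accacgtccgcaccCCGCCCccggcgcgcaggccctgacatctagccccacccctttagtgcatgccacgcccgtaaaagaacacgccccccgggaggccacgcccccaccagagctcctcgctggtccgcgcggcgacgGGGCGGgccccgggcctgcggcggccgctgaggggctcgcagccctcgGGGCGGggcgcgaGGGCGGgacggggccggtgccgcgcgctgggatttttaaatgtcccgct
Cdkn1b: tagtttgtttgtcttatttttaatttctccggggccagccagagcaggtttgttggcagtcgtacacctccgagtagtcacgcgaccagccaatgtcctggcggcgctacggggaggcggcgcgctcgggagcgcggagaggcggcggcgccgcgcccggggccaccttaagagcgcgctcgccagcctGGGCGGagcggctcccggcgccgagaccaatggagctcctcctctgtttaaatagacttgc
Ccne1 had 4 GC boxes and 76.0% G and C in this stretch, and Cdkn1b had 1 box and 64.4%. In the full windows, of 250 bases before to 50 after the start, 7 of 10 windows held a GC box on either strand, against 35.7% of 32851 promoters. The CCAAT box stood in 3 of 10 windows, against 37.4% of promoters. The bases after the start of the second Ccnd3 window were not found in a GENCODE transcript of that gene, and without that window the counts were 6 of 9 for the GC box and 2 of 9 for the CCAAT box. Of the E2F sites TTTGGCGC, TTTCCCGC, TTTCGCGC and TTTGCCGC, searched on both strands, 0 windows held any, against 2.26% of promoters. The Sox sites AACAAAG and AACAATG were likewise in 0 of 10 windows, against 9.36% of promoters. A shorter E2F core, TTCCCGC, which is part of the second E2F site, was in 1 window, that of Cdkn2c, against 4.60% of promoters. Such matches describe letters only. Both windows of Cdkn2c, the window of Cdk6 and the second windows of Cdkn1a and Ccnd3 lie wholly within the GENCODE genes as placed above. Those windows hold no sequence upstream of these gene models. Ccnd1, Ccnd2 and Ccne2 were not among the sequences.

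Other cyclins, kinases and inhibitors were examined as a list of 14, all present. In it 1 fell, 0 rose and 13 were not called, where 1.83% of all rows were called lower and 3.17% higher, and the median log2 ratio of the 13 at a level of at least 1 was -0.18, against 0.00177 over all rows. The fall was that of Ccng2 (chromosome 5, 93267257 to 93276231, plus strand), an unconventional cyclin associated with cell cycle arrest, listed at 20.8 and then 9.90 in the authors' deposited table. The level fell 2.10-fold (log2 fold -1.07, Cuffdiff q = 0.00304 in the authors' deposited table). Its relative Ccng1, a target of p53, stood at 138.3 and 136.7, and Ccna2, the cyclin of S phase and G2, at 95.8 and 97.6 in the authors' deposited table. Cdk2, the partner of the E-type cyclins, stood at 36.5 and 37.3 in the authors' deposited table, with a Cuffdiff q of 0.966. Of the 14 folds 4 were positive, those of Cdk2, Ccna1, Ccna2 and Ccnf. The other 10 were negative, with the cyclin genes Ccnb1, Ccnb2, Ccng1 and Ccng2 among them. Looking at inhibitors of both lists, a step chosen after their values were seen, 7 of 7 CIP/KIP and INK4 genes had a negative fold, as did 49.5% of all rows, and 0 were called. Of these, Cdkn1c at 1.15 and 0.902 and Cdkn2b at 2.47 and 1.77 in the authors' deposited table were low in level. Set against the median of rows of like transcript length, 6 of the 7 lay below it. Cdkn1a and Cdkn2c did so by little, at -0.057 and -0.045 from it. Cdkn2a, at a log2 fold of -0.22, lay at its median of -0.22. The log2 folds of the 7 ran from -0.53 for Cdkn2d to -0.11 for Cdkn2c. Cdkn2a, whose row covers an INK4 inhibitor and the ARF protein, stood at 22.9 and 19.6 in the authors' deposited table.

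Downstream of the G1 kinases, the retinoblastoma family, E2F and DP factors formed a list of 13, all present. Of these 1 rose, 0 fell and 12 were not called, where 3.17% of all rows were called higher. The median log2 ratio was 0.16, against 0.00177 over all rows, with 9 of 13 folds positive. E2f8 (chromosome 7, 48866429 to 48881596, minus strand), an atypical E2F that represses E2F targets, rose, with levels of 9.46 and 14.8 in the authors' deposited table (log2 fold 0.65, Cuffdiff q = 0.0400). Its call was lost at a q of at most 0.01. E2f7, the other atypical member, stood at 6.56 and 8.99 in the authors' deposited table, with a Cuffdiff q of 0.211. The activating factors E2f1, E2f2 and E2f3, described after their values were seen, had log2 folds of 0.33, 0.45 and 0.32 in the authors' deposited table and were not called. Tfdp1, a DP partner of E2F, stood at 63.6 and 71.3 and the repressor gene E2f6 at 29.4 and 28.0 in the authors' deposited table.

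Genes that activate G1 kinases or turn over G1 regulators numbered 19, with 0 calls by Cuffdiff, where 4.99% of all rows were called in either direction. Their median log2 ratio was 0.02. An unadjusted p under 0.05 was reached by 1 of them, where 17.5% of all rows reached it. That gene was Cks2, a small kinase-binding protein, at 82.6 and 58.6 in the authors' deposited table, with an unadjusted p of 0.0170 and a Cuffdiff q of 0.172. Ddb1, a subunit of CUL4 ubiquitin ligases, stood at 209.8 and 216.1 in the authors' deposited table. Among upstream transcription factors 17 of 19 were among the rows, of which 1 fell, 0 rose and 16 were not called, where 1.83% of all rows were called lower. Their median log2 ratio was -0.24, against 0.00177 over all rows. A single call in a list of this size is close to the 4.99% of all rows called in either direction, here as in the lists of cyclins and of E2F factors. It lies above the share called in its own direction, but rests on 1 gene. Likewise, 0 calls in a list of such size is not unusual at 4.99%. Among these 17 factors, 4 had an unadjusted p under 0.05, where 17.5% of all rows had one. In the E2F list the count was 3 of 13, and among the other cyclins, kinases and inhibitors 2 of 14. Lef1 (chromosome 3, 131110471 to 131224356, plus strand), a factor of Wnt signalling, fell, with levels of 1.83 and 0.823 in the authors' deposited table (log2 fold -1.16, Cuffdiff q = 0.0416). It is expressed at a low level, and its call too was lost at a q of at most 0.01. Trp53 stood at 77.3 and 73.1, and Ezh2, a Polycomb methyltransferase, at 73.3 and 63.0 in the authors' deposited table. Of 15 targets of p53 beside Cdkn1a, 14 were among the rows, with 0 calls by Cuffdiff, where 4.99% of all rows were called. Their median log2 ratio was -0.04. Btg2, at a log2 fold of -0.48, and Perp, at 1.08, were the 2 with an unadjusted p under 0.05, which 17.5% of all rows had. The most abundant of these targets besides Ccng1, which stands in both lists, was Ei24, at 186.3 and 154.2 in the authors' deposited table.

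**Figure D3:**
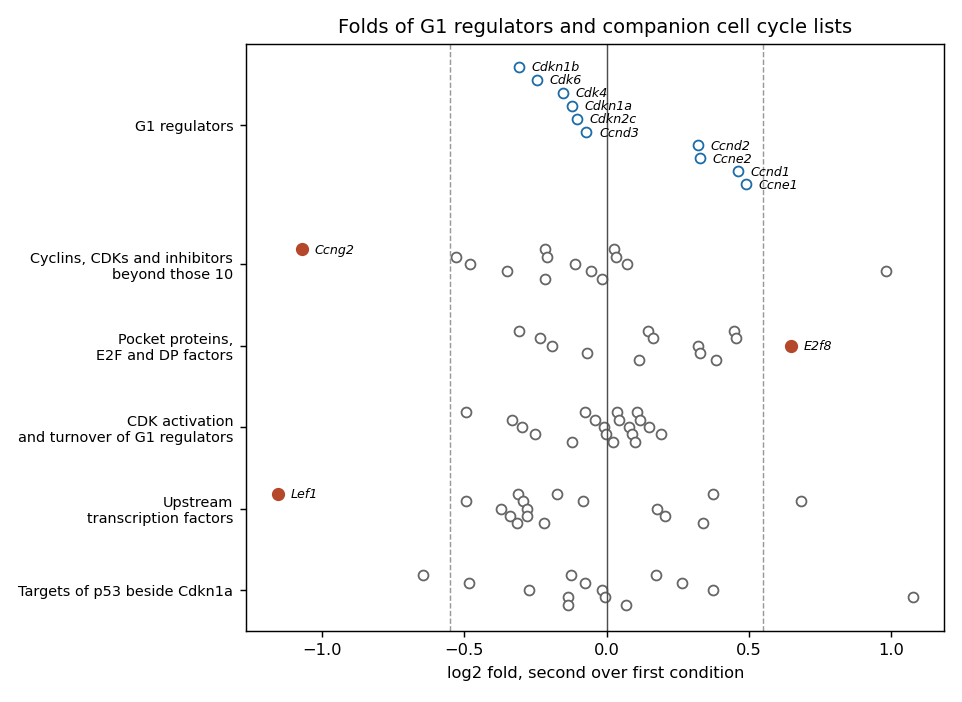
log2 folds of the second over the first condition for the 10 G1 regulators (blue, named) and for 5 companion lists, with called genes filled and named. Dashed lines mark the smallest log2 fold called over all rows, 0.55 in size. The 10 regulators lie between them, and the called genes are Ccng2, E2f8 and Lef1.

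Folds in this comparison moved with transcript length. With rows split into 10 classes of equal size by transcript length, the median log2 fold went from -0.22 in the shortest class to 0.23 in the longest. Calls moved with length as well. The shortest class held 6 rows called higher and 31 called lower, and the longest held 161 and 16. The shares of all rows called, given beside the lists above, take no account of length. Set against the median of its own class, Ccne1, whose transcript has 2000 nt, had a log2 fold 0.55 above, and Ccnd1, of 3740 nt, 0.43 above. The fold of Ccnd2, of 6330 nt, was 0.21 above its class median, and that of Ccne2, of 3006 nt, 0.35 above. Cdkn1b, of 4552 nt, was 0.38 below its class median and Cdk6, of 11525 nt, 0.48 below. With the class median taken off, all 10 genes kept their sign. Ccnd3, Cdk4, Cdkn1a and Cdkn2c lay within 0.09 of their class median. The called stem cell markers went in the direction of the length trend. Nes (6126 nt) had a log2 fold of 0.79 against a class median of 0.11, and Notch1 (9488 nt) 0.61 against 0.23. Fabp7 (880 nt) had -1.02 against -0.22. The part of length in these calls was not tested.

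Some rows share exon sequence with a gene on the other strand, and whether strand was used in counting is not given in the sources used here. Exons of Ccnd1 share 1100 bases with Lto1, listed under its older name Oraov1, which stood at 6.12 and 4.74 in the authors' deposited table. Cdk4 shares 641 bases with Tspan31, at 132.9 and 129.6 in the authors' deposited table, and Ccne2 shares 609 with Ints8, at 23.5 and 19.4 there. The level of Ints8 was thus above that of Ccne2 itself. Ccnd3 shares 361 bases with Bysl, at 15.5 and 16.3 in the authors' deposited table. None of these 4 neighbours was called. Without strand, the reads of such pairs cannot be told apart in the shared stretch. Ccnd2, Cdk6 and Cdkn1a overlap only noncoding or unclassified loci that were not matched to a row here, as do E2f8 and Lef1. For Ccne1, Cdkn1b and Cdkn2c no such overlap was annotated. A processed pseudogene of Ccnd3, Ccnd3-ps, is annotated as well, and how reads of such a copy were assigned is not given in the sources used here, so the level of Ccnd3 is uncertain to that extent.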

How the data were processed

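Libraries, 6 in number, were made from poly(A) RNA with a SOLiD RNA-Seq kit, per the labels' protocols. Cuffdiff, Cufflinks 2.2.1, TopHat2 2.0.9 and the build mm10 are named in the submitters' processing notes. The authors deposited 1 comparison with 2 levels per gene, taken as FPKM, as planned, although the header states no unit. Per the file headers it also gives a log2 fold, a test statistic (a score), a p-value and a q-value. Their test was used as deposited, since the table holds no counts or values per library. Depth is unknown.

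Rows were matched by symbol, and 82 rows that name several genes hold no gene of the set. Positions and transcript lengths are those of GENCODE M21 (GRCm38), with a length for 98.7% of rows. Values were computed with pandas 2.3.3 and numpy 2.4.6 in Python 3.11.15 and drawn with matplotlib 3.10.9. The adjustment and the medians by length class were tested on simulated data. The genes of the set and the lists were chosen with earlier results of these data known. Named were the 10 genes, called list genes, the 2 most abundant uncalled genes of each list, and Sox4. Other genes were named after their values were seen, as were the GC box, CCAAT box, short E2F core, 500-row and unadjusted-p comparisons. The split of the signs by role was not planned.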

Additional observations from a re-analysis of the deposited data

How the results depend on the processing

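The counts of called G1 regulators, 0 higher and 0 lower, were the same at a q of at most 0.01, with a minimum log2 fold of 1 in size, with Bonferroni adjustment, and with q recomputed over all rows or over rows at a level of at least 1 or 5. The stricter thresholds can only lower a count. By an unadjusted p under 0.05 the higher count was 2 and the lower count 0. With q recomputed over rows at a level of at least 1, the q of Ccnd1 was 0.127 and that of Ccne1 0.171. Over all rows, 390 were higher and 225 lower. A q of at most 0.01 left 203 and 110 of them, and a minimum log2 fold of 1 in size left 134 and 89. With q recomputed over all rows the counts were 422 and 245, so the deposited q differs from one adjusted over these rows alone. In the companion lists the 1 higher call became 0 and the 2 lower calls became 1, that of Ccng2, at the stricter q. The median log2 ratio of the set, -0.07, was -0.0859 with Cdk6 included and -0.0053 with the median of the length class taken off. With the median of the length class taken off, 0 of the 10 genes changed sign. A pseudocount cannot change a sign, and centring moved folds by only 0.0013, less than the smallest fold of the set, so those settings test nothing about the signs. No paired analysis was possible because neither passage has a level of its own in the comparison. Omitting single libraries and blocking on passage could not be run for that reason.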
